A study of Saccharomyces cerevisiae with 18 samples.

Results

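Ribosome footprints were compared with mRNA within lysates of yeast grown in YPD, a rich medium, and open reading frames (ORFs) were ranked by translation efficiency, the number of footprints per mRNA read. The libraries were chosen by medium. They are the 10 libraries (of 18 in the series) made from 5 YPD lysates, each of which gave 1 RNA-Seq and 1 Ribo-Seq library. Of 6713 ORFs in the count table, 5610 had an average log2 CPM (counts scaled to a common library size) of at least 1 over these libraries and were ranked. Of the other 1103 ORFs, 198 had no count in any of them.

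All strains derive from BY4741, a haploid laboratory strain of mating type a that carries deletions at HIS3, LEU2, MET15 and URA3. The wt strain gave 2 lysates (WT1 and WT2). Δtma20 has TMA20 replaced by a KanMX4 cassette, Δtma64 has TMA64 replaced by KanMX4, and ΔΔtma20tma64 has TMA64 replaced by HygMX4 and TMA20 by KanMX4. Each mutant gave 1 lysate in YPD, so the spread between lysates holds both the strain and the culture. Cells were grown at 30 °C to the exponential phase and treated for 3 min with 100 µg/ml cycloheximide, a blocker of elongation, before harvest. RNA-Seq measured mRNA selected on oligo(dT) beads, and Ribo-Seq the footprints, pieces of mRNA left after RNase I digestion because a ribosome covered them. Libraries from 4 lysates grown in SD medium were used for comparison only (elsewhere SD stands for standard deviation). SD medium is a synthetic medium, to which amino acids were added according to the study's methods.

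Ribosomes load onto an mRNA one after another, so the number of footprints on an ORF depends on how much of its mRNA is present, how often translation starts on each copy and how long each ribosome stays. Dividing footprints by mRNA reads of the same ORF removes the amount of mRNA and the length of the ORF. In yeast, start sites are found by scanning from the cap, and upstream ORFs (uORFs) in a leader can hold scanning ribosomes back from the main ORF. TMA20, TMA22 and TMA64 encode factors that release the small ribosomal subunit and its tRNA after termination, at uORFs as well as at main ORFs.

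The ends of the ranking are introduced by their start sites, since the start codon and the base 3 before it, both in capitals, are read by the scanning ribosome. Each sequence runs from 12 bases before the start codon to 9 bases from its first base, is given 5′ to 3′ and was read from the RefSeq genome of build R64. The first 4 are the highest of the ranking by the naming rule, the next 4 the lowest, and GCN4 and HAC1 have low translation efficiency and abundant mRNA.
DDR48: aaaaaaacaGcaATGggttta
TMA10: cacaattcaAacATGaccaga
SRO9: tctctgcccAcgATGtctgct
SSC1: atacgcaccAagATGcttgct
YHR130C: agaattaatAtcATGactaaa
IME2: aataggtcaTttATGgttgaa
IRC9: cttcagaaaAacATGacgatg
YDR003W-A: atttattatCgcATGacttgc
GCN4: aatacaaatAaaATGtccgaa
HAC1: acaaccgccActATGgaaatg

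Over the ORFs of the count table, the RNA-Seq libraries held 5608491 to 11388027 counts (median 6618047) and the Ribo-Seq libraries 5072702 to 8516836 (median 6589096). The labels were checked on genes of known genotype. URA3, LEU2 and MET17 (MET15) had 0 to 2 counts in each of the 10 libraries. HIS3, of which his3Δ1 removes a part, had 566 to 3096. The a-specific genes were read in all libraries (MFA2, a-factor, 766 to 2995 counts, and STE2, the α-factor receptor, 1053 to 5552), while of the α-specific genes MF(ALPHA)1 and MF(ALPHA)2, α-factor, had 0 to 3 and 0 to 10 counts. The other α-specific genes were read as mRNA, SAG1 with 204 to 403 and STE3 with 39 to 106 counts in the RNA-Seq libraries. TMA20 mRNA was at 99.2 to 109.5 CPM in the 3 lysates that have the gene and at 0 and 1.09 CPM in the others, and TMA64 mRNA at 60.9 to 69.0 against 0.218 and 0.478 CPM. The 5 lysates ranked the ORFs alike: Spearman's rho of log2 translation efficiency between 2 lysates ran from 0.896 (WT1 and Δtma64) to 0.959 (WT2 and Δtma64), over 5610 ORFs that share library depth and normalisation.

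Translation efficiency is given on the log2 scale relative to the typical ORF, which TMM normalisation places near 0. It was tested as the coefficient of assay with the lysate as a block by edgeR's quasi-likelihood test. Each SE was derived from the test, as the absolute coefficient divided by the square root of its F statistic. It is not an SE computed over the lysate values. The values at the percentiles 5 and 95 were −3.29 and 1.48, a 27.3-fold range, and the quartiles were −0.77 and 0.55 around a median of −0.08. The median SD over the 5 lysates was 0.207, and 4429 ORFs (78.9%) had the same sign in every lysate. Of the 5610 ORFs, 2096 (37.4%) had more and 2487 (44.3%) fewer footprints per mRNA than the typical ORF at an adjusted p under 0.05. A stricter call was used for the ends of the ranking: 543 ORFs (9.68%) were more than 2-fold above the typical ORF and 878 (15.7%) more than 2-fold below it at an adjusted p under 0.05 (edgeR's glmTreat). These calls are named high and low from here on. With total counts as library size in place of TMM, the median moved by −0.88 and 94 ORFs were high and 2357 low (3.84% of the calls high, against 38.2% with TMM), while the order of the ORFs was the same (rho = 1).

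The long tail lay below the typical ORF. The 543 high ORFs held 25.01% to 26.9% of the mRNA reads of the ranked ORFs in the 5 lysates and 47.3% to 51.6% of the footprints. The 878 low ORFs held 5.26% to 5.64% of the mRNA reads and 0.679% to 0.826% of the footprints. These shares describe ORFs chosen by the same values. The plot of footprints against mRNA shows both groups on either side of the diagonal.

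**Figure D1:**
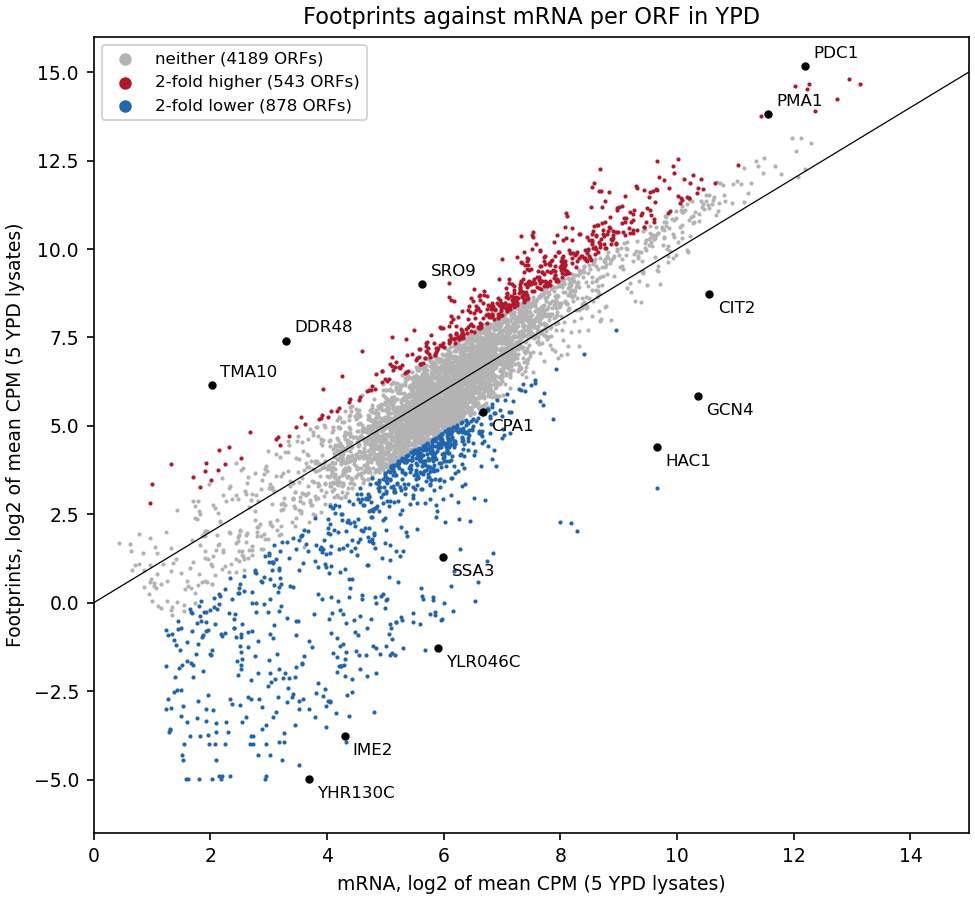
Mean footprint level against mean mRNA level of each ranked ORF over the 5 YPD lysates, both as log2 of TMM-normalised CPM, with the line of equal values; red points are the 543 high and blue points the 878 low ORFs, and 13 ORFs without a footprint are left off. DDR48, TMA10 and SRO9 lie far above the line, and CIT2, GCN4 and HAC1 have much mRNA and lie below it.

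The 12 highest genes of the naming rule lay between 2.89 and 4.14. DDR48, a stress protein made of repeats, came first at 4.14 (SE 0.15, edgeR adjusted p = 2.52e-10). Its mRNA stood at 6.46, 14.0, 7.90, 13.0 and 7.79 CPM in WT1, WT2, Δtma20, Δtma64 and ΔΔtma20tma64, and its footprints at 205.4, 220.0, 116, 184.0 and 127.5 CPM, so the 2 ranges did not meet. Only 52.6% of the 28-nt stretches of this repeated ORF are unique in the genome, and since the authors counted unique reads only, its value is uncertain. TMA10, which encodes a ribosome-associated protein, stood at 4.12 (SE 0.14, adjusted p = 5.18e-12). Its mRNA was at 2.73 to 6.20 CPM and its footprints at 51.2 to 88.0 CPM, higher in 5 of 5 lysates, and all its windows are unique.

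SRO9, an RNA-binding protein with a La motif, had 44.2, 54.1, 47.4, 48.0 and 54.0 CPM of mRNA in the same order of lysates. Its footprints were at 465.8, 455.3, 593.3, 495.6 and 549.4 CPM. The lowest footprint value was above the highest mRNA value, and the log2 translation efficiency was 3.37 (SE 0.09, adjusted p = 9.95e-13). The DEAD-box RNA helicases DED1 (3.07), which unwinds leaders during scanning, and DHH1 (2.98), which acts in mRNA decapping, followed. DED1 mRNA was at 135.6, 162.8, 144.0, 172.5 and 182.9 CPM and its footprints at 1191, 1267, 1560, 1350 and 1310 CPM.

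Chaperones made up 5 of the 12: SSC1, the Hsp70 of the mitochondrial matrix (3.29), HSP60, the mitochondrial chaperonin (2.97), and in the cytosol the Hsp90 partner STI1 (2.96), the Hsp110 SSE1 (2.92) and the Hsp90 HSP82 (2.89). Their per-lysate values lay between 2.45 (HSP82 in Δtma20) and 3.69 (SSC1 in WT1). The remaining genes were PDC1, pyruvate decarboxylase, and SAH1, which hydrolyses S-adenosylhomocysteine (2.93). PDC1 mRNA was at 5033, 4188, 4780, 4545 and 4903 CPM and its footprints at 42450, 38050, 33540, 39570 and 31550 CPM, which gave 2.98 (SE 0.12, adjusted p = 1.48e-11). The plot of the ends by lysate shows that DDR48 and TMA10 overlapped with each other, and that every value of DDR48 (at least 3.80) lay above those of the other 10 genes (at most 3.69). From TMA10 on, the range of each gene overlapped with that of the next. Within lysates TMA10 was above SRO9 in all 5, while later neighbours changed order between lysates, so their order is not resolved.

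**Figure D2:**
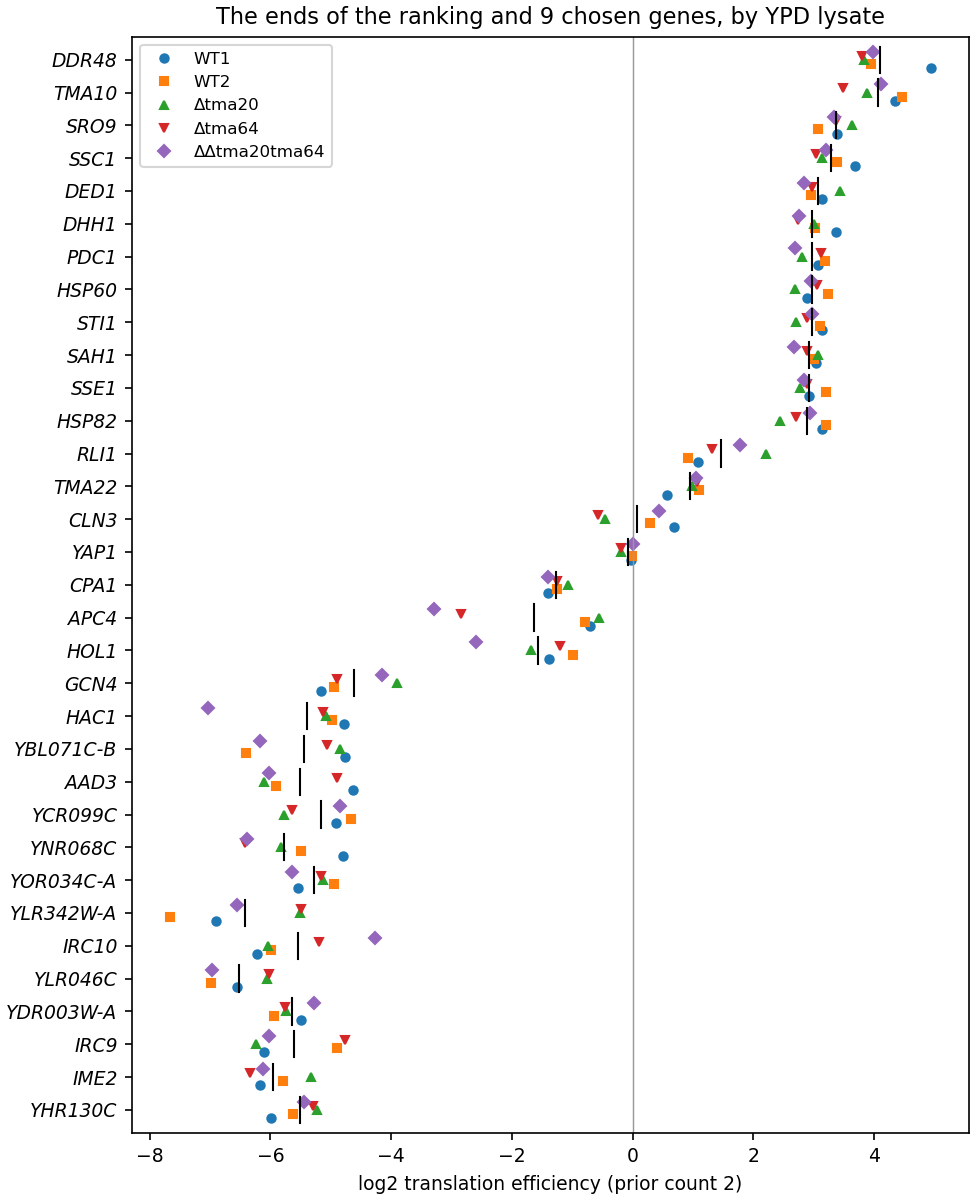
Log2 translation efficiency (x axis, computed with a prior count of 2) of the 12 highest and 12 lowest genes and 9 chosen genes in each of the 5 YPD lysates; black bars are means, and the grey line marks the typical ORF. The lowest point of the 12 highest genes is at 2.45 and the highest point of the 12 lowest at −4.26. The points of APC4 in the strains with and without TMA64 do not overlap. Nor do those of GCN4, HOL1 and RLI1 in the strains with and without TMA20. With edgeR only the difference of APC4 passed its test, while that of GCN4 passed with DESeq2 only.

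Gene lists were described by counts of high and low members and by their median log2 translation efficiency, beside 9.68% high, 15.7% low and a median of −0.08 over all ranked ORFs. Glycolysis and fermentation, the pathway from glucose to ethanol, had the highest median, 2.14, with 16 of 20 members high and none low. HXK2, the main hexokinase, stood at 2.79 and CDC19, pyruvate kinase, at 2.57. The 4 members that were not high were PDC5 (0.10), PDC6 (0.30), GLK1 (0.65) and TPI1 (1.17). Over the lysates the median of this list ran from 1.84 to 2.504, which overlaps the range of the elongation factors (1.53 to 2.08), the next list in the plot by list.

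**Figure D3:**
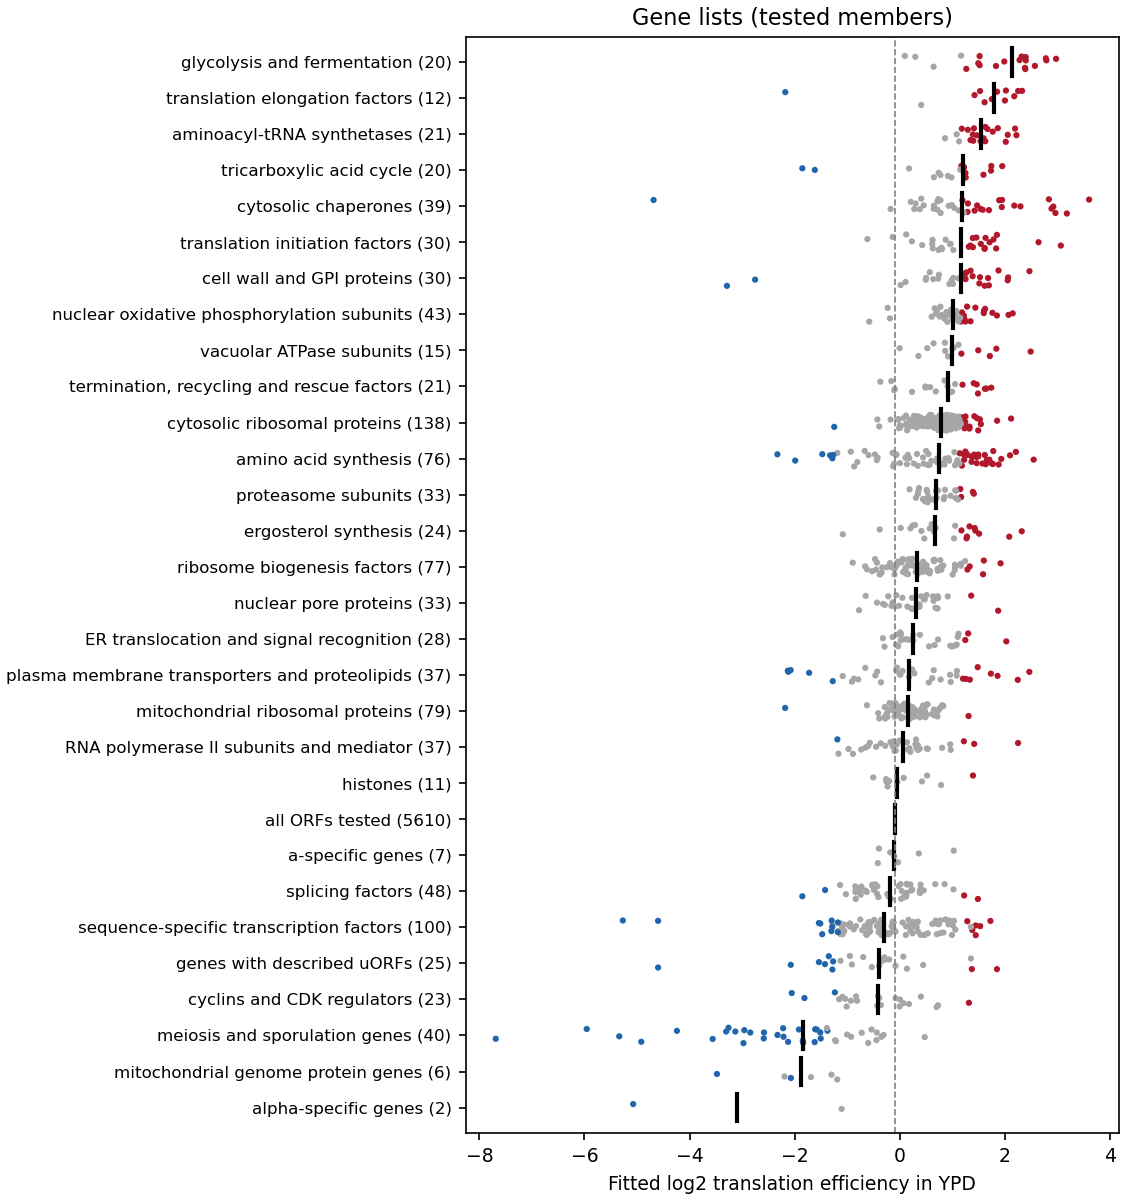
Fitted log2 translation efficiency in YPD of the tested members of 29 gene lists (number of members in brackets), ordered by median; red points are high, blue points low and grey points neither, black bars are medians, and the dashed line is the median of all 5610 ORFs. Glycolysis stands at the top with a median of 2.14, and the ranked meiosis genes, at −1.84, are among the lowest.

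Of 12 elongation factors 10 were high (median 1.80), among them the ATPase YEF3 (eEF3, 2.33) and HYP2 (eIF5A, 2.25). All 21 aminoacyl-tRNA synthetases, which charge tRNAs, passed the quasi-likelihood test as higher, and 18 were high (median 1.54). The aspartyl enzyme DPS1 stood at 2.22 and the alanyl enzyme ALA1 at 2.20. Of 30 initiation factors 15 were high and none low (median 1.17). DED1 and PAB1, the poly(A)-binding protein (2.64), led this list, and CDC123, an assembly factor of eIF2, was lowest (−0.61). Of 21 termination, recycling and rescue factors 7 were high (median 0.91), with MBF1, which acts at collided ribosomes, at 1.74 and STM1, which binds idle ribosomes, at 1.65.

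Ribosomal proteins were less far from the typical ORF. Of 138 genes of cytosolic ribosomal proteins, 122 passed as higher, but 21 (15.2%) were high, and the median was 0.79. RPL6B (2.12) and RPS15 (1.85) led them. Many of these genes are near-identical pairs, whose shared reads were not counted. Of 77 ribosome biogenesis factors 5 were high (median 0.34), with RRP5 at 1.92, and of 79 mitochondrial ribosomal proteins 1, MRPL44 (1.31), was high and 1, GEP3 (−2.18), low (median 0.15). The median of the biogenesis factors lay between −0.12 and 0.63 over the lysates.

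Of 20 genes of the tricarboxylic acid cycle 11 were high (median 1.20), led by the aconitase ACO1 (1.95) and KGD2, of the α-ketoglutarate dehydrogenase (1.74). Of 43 nuclear genes of oxidative phosphorylation 16 were high and none low (median 1.01), with the ATP synthase subunits ATP3 at 2.15 and ATP1 at 2.07. Of 15 subunits of the vacuolar ATPase 5 were high (median 1.00), led by VMA1 (2.49) and VMA2 (1.84). Genes of the mitochondrial genome, whose mRNAs in yeast are not polyadenylated, were read at low and unequal levels: 6 of 8 were ranked, 2 (COX1 and COX2) were low, and the list median ran from −3.59 to 0.06 over the lysates and was 0.67 in SD medium. OLI1, a subunit of the ATP synthase, stood at −2.19 (SE 0.60, adjusted p = 0.0102 by edgeR, and 0.101 without WT1).

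Of 39 cytosolic chaperones 19 were high (median 1.20). The Hsp70 genes SSA2 (3.60) and SSA1 (3.18) led them. With 36.8% and 37.1% unique windows, these near-identical genes are uncertain. SSA3, an Hsp70 that is induced by stress, was low at −4.68. Of 30 cell wall and GPI-anchored proteins 15 were high (median 1.16), led by the mannoprotein TIR1 (2.47) and CIS3 (2.06), while TIR2 (−3.29) and PIR3 (−2.75) were low. All 33 proteasome subunits passed as higher, but 4 were high (median 0.68), with RPN7 at 1.41 and RPN1 at 1.39. Of 24 genes of ergosterol synthesis 9 were high (median 0.68). ERG13, HMG-CoA synthase, stood at 2.32 and ERG7, lanosterol synthase, at −1.08.

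The genes of amino acid synthesis were spread to both sides, with 27 of 76 high and 6 low (median 0.74). CYS3, which makes cysteine (2.55), and ILV5, of branched-chain synthesis (2.21), were the highest. The low members were GDH3 (−2.33), ARG8 (−1.99), STR2 (−1.47), ARG2 (−1.32), CPA1 (−1.28) and MET16 (−1.27), and of these ARG2, ARG8 and CPA1 act in arginine synthesis. Transporters and proteolipids of the plasma membrane were split as well, with 8 of 37 high and 5 low (median 0.18). The glucose transporter HXT2 (2.47) and the proton pump PMA1 (2.25) were high. The ammonium transporters MEP1 (−1.72), MEP2 (−2.13) and MEP3 (−1.27), the phosphate transporter PHO87 (−2.12) and the zinc transporter ZRT1 (−2.08) were low.

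Several lists lay near the typical ORF. They were nuclear pore proteins (median 0.30, 2 of 33 high), ER translocation and signal recognition (0.26, 3 of 28 high, KAR2 at 2.03), RNA polymerase II and mediator (0.05, 3 of 37 high), histones (−0.04, 1 of 11 high), a-specific genes (−0.10, none of 7 high or low, 2 passing the quasi-likelihood test as higher and 1 as lower) and splicing factors (−0.19, 2 of 48 high and 2 low). RPO21, the largest subunit of RNA polymerase II, stood apart from its list at 2.25. The linker histone HHO1 stood at 1.40 and the core histone gene HHF1 at −0.50. The splicing factors PRP46 (−1.85) and PRP42 (−1.42) were low. BAR1, the protease that degrades α-factor, was the highest a-specific gene (1.03).

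Of 100 sequence-specific transcription factors 6 were high and 10 low, beside 15.7% low over all ORFs and 13.7% over nuclear protein-coding ORFs. By the quasi-likelihood test 50 passed as lower and 32 as higher, against 44.3% and 37.4% of all ORFs. Their median was −0.30 and ran from −0.44 to −0.05 over the lysates, and the 2 lowest were HAC1 and GCN4. The highest were RTG1 (1.73), which answers to mitochondrial state, and MIG1 (1.53), a repressor under glucose. Of 23 cyclins and regulators of the cyclin-dependent kinase (median −0.41) 1 was high, CKS1 (1.32), and 3 were low. These 3 are 13%, near the 13.7% of nuclear protein-coding ORFs. By the quasi-likelihood test, however, 14 of the 23 passed as lower and 4 as higher. The low members were PCL5 (−2.05), PHO80 (−1.81) and CDH1 (−1.23). Of 25 genes with described uORFs 2 were high, TIF4631 (eIF4G, 1.85) and URA1 (1.37), and 7 low (median −0.39), and 17 of 25 passed as lower against 44.3% of all ORFs.

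GCN4, the activator of amino acid synthesis genes, has 4 uORFs that keep ribosomes from its ORF in amino acid-rich media. GCN4 mRNA was abundant, at 1491, 1148, 1389, 1141 and 1409 CPM in WT1, WT2, Δtma20, Δtma64 and ΔΔtma20tma64. Its footprints stood at 41.3, 36.8, 92.2, 37.9 and 79.3 CPM, with both lysates that lack TMA20 above the other 3 (difference in log2 translation efficiency with loss of TMA20 1.00, edgeR adjusted p = 0.786, not passed, and 0.0288 by DESeq2). The log2 translation efficiency was −4.60 (SE 0.20, edgeR adjusted p = 6.07e-09), rank 5417 of 5610. HAC1, the activator of the unfolded protein response, carries an intron that blocks translation until it is spliced in the cytoplasm. HAC1 mRNA was at 760.0, 799.7, 778.1, 837.4 and 865.0 CPM and its footprints at 22.7 to 27.5 CPM in the first 4 lysates and at 6.33 CPM in ΔΔtma20tma64, which gave −5.27 (SE 0.28, adjusted p = 4.08e-07).

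Other genes with known uORFs were closer to the typical ORF. CPA1, whose uORF peptide stalls ribosomes when arginine is ample, stood at −1.28 (SE 0.08, adjusted p = 1.37e-09), with values of −1.40 to −1.08 in the 5 lysates. HOL1, a transporter of the plasma membrane whose uORF answers to polyamines, was at −1.54 (SE 0.19, adjusted p = 3.53e-05). Its values were −1.39, −0.99 and −1.21 in WT1, WT2 and Δtma64 and −1.68 and −2.59 in Δtma20 and ΔΔtma20tma64, so the lysates without TMA20 were the lowest, but the difference with loss of TMA20 (−0.85, SE 0.23) did not pass (edgeR adjusted p = 0.919). The transcription factor YAP1 (−0.08, adjusted p = 0.321) and the G1 cyclin CLN3 (0.07, adjusted p = 0.728) did not pass. CLN3 ranged from −0.57 to 0.69 over the lysates and stood at 0.50 (adjusted p = 0.0203) in the wt lysates alone.

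Genes of meiosis and sporulation, which are repressed in growing haploid cells, were in part too little read to be ranked. Of 62 listed genes 22 were below the minimum and 40 were ranked, and of these 27 were low and none high. Members with nearly no footprints, such as IME2 and ADY3, were ranked through their mRNA alone and had to be low, so the count describes the ranked members only. Their median mRNA level was 4.46 CPM per kb against 50.04 for all ORFs. IME2, a protein kinase that starts meiosis, had 236, 206, 127, 189 and 257 mRNA reads in the 5 lysates. Its footprints numbered 0, 1, 1, 0 and 0. The pooled ratio was 245.6-fold below that of the typical ORF, with an exact binomial 95% interval of 67.8-fold to 2031-fold that covers counting error only. ADY3, which acts in spore formation, had 11 footprints against 1389 mRNA reads. IME1, the transcription factor that turns on IME2, was not low (0.48, adjusted p = 0.0346, which missed the threshold without WT1, without WT2 and without ΔΔtma20tma64). Of 4 α-specific genes 2 were ranked, and SAG1, α-agglutinin, was low at −5.07.

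The 12 lowest genes of the naming rule had 1 to 11 footprints in all 5 lysates together, against 673 to 3187 mRNA reads. With so few footprints they met the minimum CPM through their mRNA alone and had to be low. Apart from IME2 and AAD3, a putative aryl-alcohol dehydrogenase, they were IRC9, IRC10 and 8 ORFs without a gene name. YLR046C was read most, with 907, 471, 458, 421 and 930 mRNA reads and 3, 1, 4, 2 and 1 footprints, a pooled ratio 140.2-fold below the typical ORF (95% interval 78.2-fold to 281.1-fold). YHR130C had 1 footprint against 673 mRNA reads (325.7-fold, interval 58.2-fold to 12880-fold). The intervals of all 12 overlap, so their order is not resolved, and the fitted values, −6.56 to −7.91, depend on the prior count.

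The surroundings of these ORFs differed. YDR003W-A starts 27 nt after the end of RCR2 on the same strand, YHR130C 39 nt after YHR131C and YOR034C-A 66 nt after SHE4. IRC9 overlaps the protein kinase gene YAK1 on the same strand and had 663 reads on the opposite strand beside its 839. YCR099C overlaps EMA35. Whether reads from neighbouring transcripts add to the mRNA reads of these ORFs was not tested. Of 688 ORFs that the RefSeq annotation of R64 does not hold, 131 were ranked, of which 117 were low and none was high. As the minimum was set on the average of both assays, an ORF with few footprints could be ranked through its mRNA alone and had then to be low, so these counts describe the ranked ORFs only.

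Some pairs of related genes held a low member beside a partner above the typical ORF (pairs chosen after their values were seen, each with at least 92.2% unique windows). CIT1, the mitochondrial citrate synthase, stood at 0.74 and CIT2, the peroxisomal one, at −1.85, although CIT2 mRNA was the higher (1089 against 166.6 CPM per kb). The difference in log2 translation efficiency was 2.59 ± 0.11 (SD, n = 5 lysates). CIT2 mRNA was at 1775, 1411, 1194, 1419 and 1728 CPM and its footprints at 568.3, 431.3, 289.3, 409.1 and 410.0 CPM, below the mRNA in every lysate. YEF3 exceeded its paralogue HEF3 (−2.18), which is little expressed, by 4.46 ± 0.31. GDH1, a glutamate dehydrogenase, exceeded GDH3 by 3.72 ± 0.13. RPL22A (0.72) exceeded RPL22B (−1.25), the only low gene among the cytosolic ribosomal proteins, by 1.97 ± 0.30. The smallest of these 4 differences in any lysate was 1.66, which describes the chosen pairs only.

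The start site and the mRNA level differed along the ranking. Over 5462 nuclear protein-coding ORFs, an A stood 3 bases before the start codon in 61.5%, and in 72.4% of the 543 high, 62.1% of the 4170 intermediate and 49.9% of the 749 low ORFs. A T stood there in 6.08%, 10.02% and 17.0%, against 10.6% of all 5462. Among the start sites of the 12 highest genes, such as SRO9 and SSC1 above, the base was A in 8, G in 3 and C in 1, and among the 12 lowest it was A in 6, T in 4, as in IME2 above, and G or C in 1 each. GCN4 and HAC1 both have A there. ORFs without a gene name made up 2.03% of the high and 19.2% of the low ORFs, against 7.3% of all 5462. Some low ORFs were ranked through their mRNA alone and had to be low, so these shares describe the ranked ORFs only.

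Translation efficiency was higher in the ORFs with more mRNA per kb (Spearman's rho = 0.370 across 5462 ORFs, which share the mRNA reads on both axes and are not replicates). Its median went from −0.59 in the lowest to 0.78 in the highest of 10 equal classes of mRNA level, and 154 of the 547 ORFs of the top class were high against 35 of 547 in the bottom class. The plot by mRNA level shows both. In the lower classes an ORF with few footprints could be ranked through its mRNA alone and had then to be low. These values and the codon shares below thus describe the ranked ORFs only. Coding length had nearly no relation (rho = −0.021), and GC content a weak one (0.209). Among codons, the share of GCT (alanine, rho = 0.381) and GGT (glycine, 0.355) had the highest and that of ATA (isoleucine, −0.480) and CGA (arginine, −0.411) the lowest rho over 5442 ORFs. GCT made up 3.82% of the codons of the high and 1.74% of the low ORFs, and ATA 0.691% and 2.32%.

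**Figure D4:**
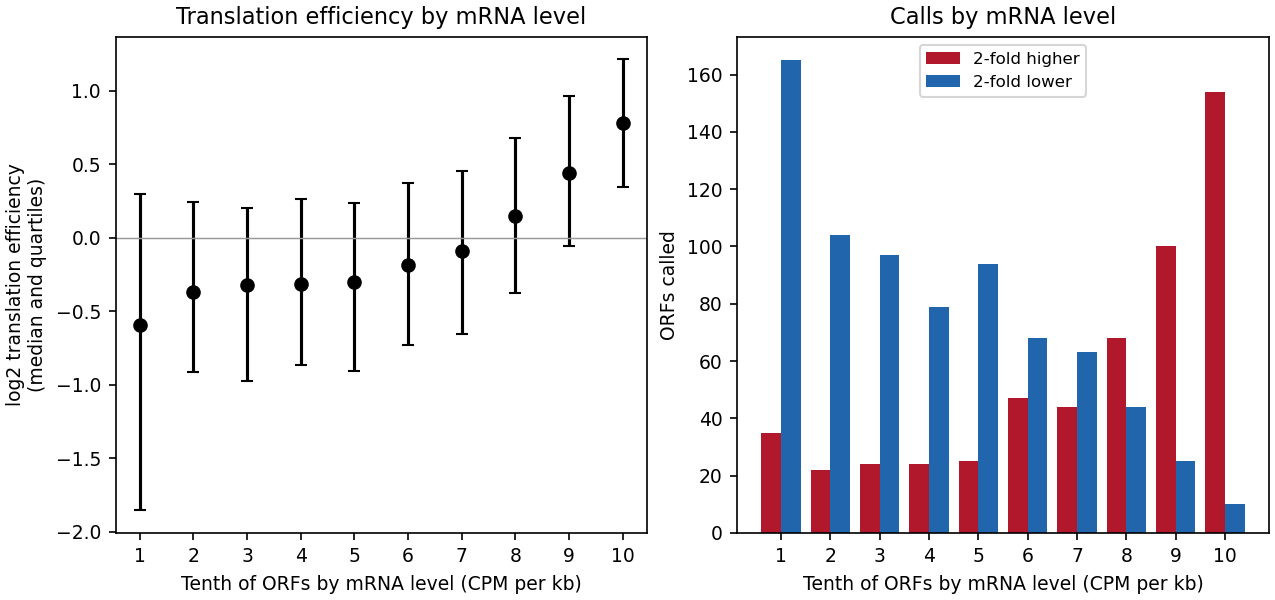
Left, median and quartiles (bars) of log2 translation efficiency in 10 equal classes of 5462 nuclear protein-coding ORFs ordered by mRNA level (CPM per kb); right, number of high (red) and low (blue) ORFs in each class. The median goes from −0.59 to 0.78 and the number of low ORFs from 165 to 10.

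The 4 SD medium lysates, which the ranking did not use, gave values close to those in YPD (Spearman's rho = 0.936 over 5586 ORFs that share strains and normalisation). The Ribo-Seq libraries from SD medium were of unequal depth, with 1668588 to 23532664 counts (median 7390527). Of the 543 high ORFs 542 were ranked in SD medium, 539 (99.4%) had the same sign and 458 (84.5%) were high there, where 11.5% of all ORFs were high. Of the 878 low ORFs 865 were ranked, 854 (98.7%) had the same sign and 701 (81.0%) were low, against 14.7% of all ORFs. In the opposite direction 2 of the high and 3 of the low ORFs were called. The minimum in SD medium was likewise set on the average of both assays. An ORF with nearly no footprints was ranked there through its mRNA alone and had to be low again. The shares of the low ORFs are thus in part fixed in advance.

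The difference between the media itself was tested as the interaction of assay and medium over all 18 libraries. Of 5640 ORFs, 203 (3.6%) had higher and 347 (6.15%) lower translation efficiency in YPD than in SD medium. The count of higher ORFs was 114 without WT2, 135 without wt in SD medium and 127 without Δtma20 in SD medium, and that of lower ORFs 227 without WT2, 230 without ΔΔtma20tma64 in YPD and 226 without it in SD medium. Among the named genes PHO87 had the smallest adjusted p: it stood at −2.12 in YPD and at 0.01 in SD medium (difference −2.11, SE 0.16, edgeR adjusted p = 2.27e-07). In YPD its mRNA was at 228.8, 191.6, 176.4, 174.8 and 264.4 CPM and its footprints at 45.0, 34.7, 60.6, 37.4 and 62.6 CPM, so footprints were below mRNA in each lysate. PIR3, a cell wall protein, had −2.75 and −0.04 (adjusted p = 2.19e-04) and MEP2 −2.13 and −0.94 (adjusted p = 0.00237). PMA1 (2.25 and 3.16, adjusted p = 4.53e-04) was lower in YPD too. TMA10 (4.12 and 2.61, adjusted p = 9.73e-06) and TIR1 (2.47 and 1.48, adjusted p = 0.00113) were higher in YPD. GCN4 stood at −4.60 in YPD and −3.49 in SD medium (adjusted p = 0.0247), a call that was lost without WT1, WT2, Δtma64 in YPD or wt in SD medium (adjusted p = 0.0503 to 0.0889).

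**Figure D5:**
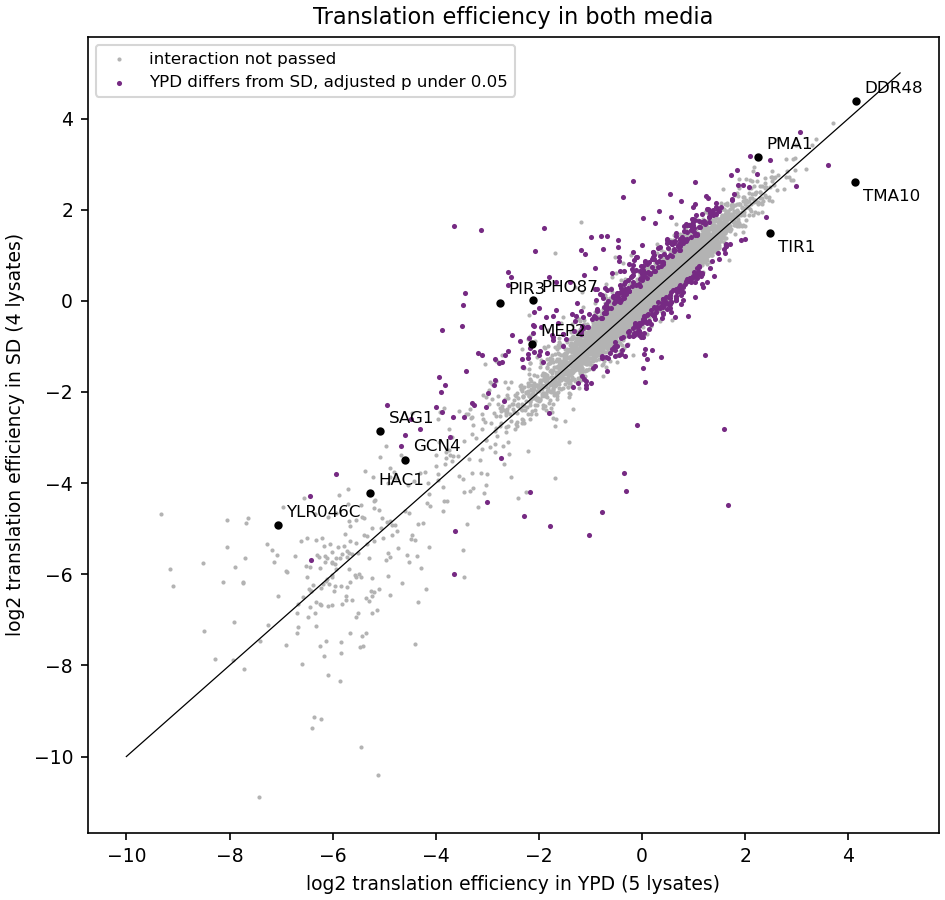
Fitted log2 translation efficiency of each ORF in SD medium (4 lysates, y axis) against YPD (5 lysates, x axis), with the line of equal values; purple points passed the test of the difference between media, and black points are named genes. Most ORFs lie along the line, while PHO87 and PIR3 lie above it and TMA10 and TIR1 below it.

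The strains were compared within YPD, with 1 lysate per mutant and 2 residual degrees of freedom. Loss of TMA20 changed the translation efficiency of no ORF at an adjusted p under 0.05 with edgeR (0% higher and 0% lower of 5610). However, 234 had an unadjusted p under 0.05, and DESeq2 found 1 that was higher, GCN4. The counts of higher and lower ORFs were 6 and 10 without WT1, 3 and 13 without Δtma20, 21 and 33 without Δtma64, and 23 and 29 without ΔΔtma20tma64, and none passed without WT2. Values of named genes still stood apart by strain. RLI1, the ATPase that splits terminated ribosomes, had footprints at 277.7, 282.8 and 345.1 CPM in WT1, WT2 and Δtma64 and at 813.0 and 682.5 CPM in Δtma20 and ΔΔtma20tma64. Its mRNA was at 130.8, 149.6 and 139.2 CPM in the former and 175.5 and 198.0 CPM in the latter, and the ranges overlapped in neither assay. The difference in log2 translation efficiency, 0.89 (SE 0.20), did not pass (edgeR adjusted p = 0.919). Its fitted log2 translation efficiency in YPD, 1.47 (SE 0.17), covers values from 0.92 to 2.21.

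Loss of TMA64 gave 1 lower ORF (0.0178%) and none higher with edgeR (67 at an unadjusted p under 0.05). This was APC4, a subunit of the anaphase-promoting complex, which starts 238 nt from TMA64 on the opposite strand. Since a cassette replaces TMA64 in both lysates, the loss of the TMA64 product and the changed locus beside APC4 cannot be told apart. APC4 mRNA was at 32.1, 37.1, 34.3, 39.2 and 34.6 CPM in WT1, WT2, Δtma20, Δtma64 and ΔΔtma20tma64. Its footprints were at 19.5, 21.4 and 23.2 CPM in the 3 lysates with TMA64 and at 5.25 and 3.29 CPM in the 2 without it. The difference was −2.42 (SE 0.29, adjusted p = 0.0236, and 0.646 without WT2). No ORF was called without WT2, 19 higher and 23 lower ORFs were called without Δtma20 and also without ΔΔtma20tma64, and 8 lower ORFs without Δtma64. TMA20 itself stood at 0.72, 0.88 and 0.98 in the 3 lysates that have it, TMA64 at 0.53, 0.43 and 0.48, and TMA22, the partner of TMA20, at 0.96 (SE 0.09, adjusted p = 6.81e-08).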

How the data were processed

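RNA-Seq and Ribo-Seq were made by the authors from portions of the same lysates. The authors trimmed reads with cutadapt 1.18, aligned them to R64-1-1 with STAR 2.5.3a and had it tally unique alignments for each gene. The deposited values are raw counts, of which the sense-strand column was taken. Multimapping reads are not in them, so near-identical genes are undercounted. Reads outside any feature (18.8% to 23.6% of unique reads for mRNA, 0.805% to 1.09% for footprints) and ambiguous reads (at most 0.526%) did not enter.

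ORFs whose log2 CPM averaged 1 or more were normalized by TMM and tested with edgeR 4.0.16 in R 4.3.3 (robust quasi-likelihood test, lysate as a block, 4 residual degrees of freedom, Benjamini-Hochberg over all ORFs, threshold 0.05). Calls of more than 2-fold used glmTreat with a log2 threshold of 1. Each mutant had 1 lysate in YPD, so p-values rest on the spread between lysates of different strains. Values per lysate used a prior count of 2. SD medium, the assay by medium and the assay by deletion interactions were fitted in the same way. The pairing comes from the paper. As a check, the deviations of both assays from their means correlated within a lysate at 0.166 (WT1), 0.282 (WT2), 0.366 (Δtma20), 0.268 (Δtma64) and 0.409 (ΔΔtma20tma64), each higher than with any other lysate. The scripts were tested on simulated data of 5554 ORFs, in which 67, 66 and 66 ORFs were changed 1.5-fold, 2-fold and 4-fold. At the adjusted p threshold of 0.05, 8.37% of the calls were false, which is above that level. The unchanged ORFs lay away from the 2-fold threshold, so false 2-fold calls were not tested. Nor were differences of more than 4-fold.

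The alternatives were RLE size factors, total counts, DESeq2 1.42.0, no block, no filter, filterByExpr, unstranded counts, wt lysates only, annotated nuclear genes only, and each lysate left out. Named genes were the 12 highest and 12 lowest (2-fold call, average log2 CPM of at least 3, same sign in 5 lysates, annotated nuclear protein-coding genes, at least 50% of 28-nt windows unique), up to 2 highest and 2 lowest members per list that passed with the same CPM, and GCN4, CPA1, HAC1, CLN3, YAP1, HOL1, RLI1, APC4, TMA20, TMA64 and TMA22. Other list members are named beside the counts they belong to. The members and lists were chosen with earlier results of these data known. Intervals are exact binomial ones of pooled counts and cover counting error only. Coordinates and sequences come from RefSeq R64.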

Additional observations from a re-analysis of the deposited data

Results flagged for a closer look

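In groups of 5 lysates, Dixon's test at the 95% level picked 8 of 121 named genes for 1 lysate apart from the other 4, where chance gives about 1 in 20 (6.05). The lysate was WT1 for 3 genes, Δtma64 for 1 and ΔΔtma20tma64 for 4. DDR48 was at 4.94 in WT1 (3.80 to 3.99 in the others), MIG1 at 2.18 in WT1 (1.24 to 1.43) and TMA22 at 0.58 in WT1 (0.99 to 1.10). SWS2, of the mitochondrial ribosome, was at 0.42 in Δtma64 (0.88 to 1.00). In ΔΔtma20tma64, CYS3 was at 2.02 (2.58 to 2.76), ILV5 at 1.84 (2.25 to 2.40), TIR2 at −4.17 (−3.13 to −2.76) and HAC1 at −7.04 (−5.13 to −4.78).

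The test of the difference between media passed for 22 of 121 named genes with edgeR, against 3.6% of all ORFs higher and 6.15% lower. Many of the named genes were chosen as extremes of the YPD values that enter this difference, so the count is a description. Higher in YPD by log2 translation efficiency were TMA10 (1.55), TIR1 (1.02), SSA2 (0.64), SNU13 (0.59), RPL22B (0.59) and PDC1 (0.49). Lower in YPD were PIR3 (−2.69), SAG1 (−2.20), YLR046C (−2.14), PHO87 (−2.11), MEP2 (−1.16), GCN4 (−1.09), RTG1 (−1.02), GDH3 (−0.99), PMA1 (−0.88), ARG8 (−0.86), CIT2 (−0.69), DED1 (−0.61), ACO1 (−0.56), MBF1 (−0.47), HTZ1 (−0.46) and ATP1 (−0.41). YLR046C had 11 and SAG1 20 footprints in all 5 YPD lysates together. APC4 differed by −2.42 between the YPD lysates without and with TMA64 (adjusted p = 0.0236, and 0.646 without WT2).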

How the results depend on the processing

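With total counts as library size, which moved the median of all ORFs by −0.88, 627 ORFs had higher and 4383 lower translation efficiency, and 94 were high and 2357 low. The sign then turned for SWS2 (−0.051), HTZ1 (−0.093), WHI5 (−0.15), IME1 (−0.40), TMA64 (−0.42), STE6 (−0.52) and CLN3 (−0.81), and for the medians of cytosolic ribosomal proteins (−0.093), amino acid synthesis (−0.14), ergosterol synthesis (−0.20), proteasome (−0.20), ribosome biogenesis (−0.55), nuclear pore (−0.58), ER translocation (−0.62), plasma membrane transporters (−0.71), mitochondrial ribosomal proteins (−0.73) and RNA polymerase II and mediator (−0.83). The histone median was 0.0033 with RLE, 0.002225 with DESeq2, 0.059 unstranded and −0.087 to 0.0025 without 1 lysate, and the a-specific median 0.005347 unstranded. DESeq2 called 1 ORF, GCN4, higher with loss of TMA20.

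Without the replicate block, 2076 ORFs were higher and 2474 lower, and of 535 high and 877 low ORFs 534 and 874 were also called with it. The block-free fit between media gave 155 higher and 268 lower and lost the calls of SSA2, TIR1, ATP1, ACO1, RTG1 and CIT2. In SD medium each strain had 1 lysate, so a fit with strain but no lysate is the blocked fit.

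With 1 lysate left out, 1998 to 2092 ORFs were higher and 2372 to 2482 lower in YPD, 489 to 555 high and 832 to 884 low. Between media the range was 114 to 227 higher and 226 to 465 lower, with loss of TMA20 0 to 23 and 0 to 33, and with loss of TMA64 0 to 19 and 0 to 23. Depth limits the lowest genes, whose intervals span more than the differences between them.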
